A study of Arabidopsis thaliana with 22 samples.

Results

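The transcriptome of *lrx345* seedlings at 24 h of NaCl was compared with that of *lrx345* seedlings before the treatment. Libraries were chosen by their labels, 3 at 24 h and 2 at 0 h, so that 5 of the 22 libraries of the series were compared, and all 21831 genes with enough counts of the 33602 listed were tested. *lrx345* is an *Arabidopsis thaliana* triple mutant of *LRX3*, *LRX4* and *LRX5*, and every library at 0 h and at 24 h came from seedlings with this genotype, 10 days old by the labels. The 24 h libraries came from seedlings treated with 150 mM NaCl, and the 0 h libraries from untreated seedlings. The wild type (Col-0) had 2 libraries at 0 h and 3 at 24 h of the same treatment. It was used to ask where the mutant's change differed, and all 22 libraries entered the statistical fit. No seedlings kept for 24 h without NaCl were sampled, so the effect of the salt and that of 24 h of further growth cannot be told apart.

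LRX proteins are extensins of the cell wall with a leucine-rich repeat domain, and LRX3, LRX4 and LRX5 act with RALF peptides and the receptor kinase FERONIA in the sensing of cell wall integrity. High salt lowers the water potential around the root, brings sodium into the tissue and softens the wall. Abscisic acid (ABA) is the main hormone of the osmotic response, while jasmonate and ethylene are better known from wounding and defence. RNA was taken from seedlings, which hold root and shoot together. In such samples fewer cells of a type and less RNA per cell cannot be told apart.

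Over the 5 libraries, between 7413461 and 15047080 fragments were counted on genes, with 11447188 or more at 0 h and 9499630 or fewer at 24 h. Genes of the plastid genome held 0.116% and 0.124% of the counts at 0 h and between 0.313% and 0.327% at 24 h, and those of the mitochondrial genome 0.108% and 0.117% against between 0.210% and 0.386%. The part of these shares in the results was not tested. Levels are given as FPKM, the fragments of a gene scaled to its exon length in kilobases and to the library size, which was corrected by TMM (edgeR's factors for unequal composition). A gene was said to have risen or fallen where its adjusted p was under 0.05 in edgeR's quasi-likelihood test and its fold change above 2. Log2 fold changes are given with an approximate standard error.

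At 24 h of NaCl, 4525 genes (20.7% of those tested) differed from 0 h in *lrx345*. Of these, 2740 rose (12.6%) and 1785 fell (8.18%). Without the fold minimum 11772 genes passed (53.9%), 6002 of them higher (27.5%) and 5770 lower (26.4%). The median change of the genes that rose was 1.98 on the log2 scale, and 536 of them rose more than 16-fold by the fitted value, which depends on a prior count for the 268 genes with no count at 0 h. The median of those that fell was -1.59, and 162 fell more than 16-fold. The libraries of 0 h and 24 h did not overlap for 2707 of the genes that rose and 1760 of those that fell, while 24 h lay above 0 h without overlap for 33.2% and below it for 33.4% of all genes tested, 66.6% together. The genes that rose held 4.54% and 5.04% of all counts in the 0 h libraries and 16.7%, 16.1% and 16% in the 24 h libraries. Those that fell held 6.61% and 6.42% before and 2.09%, 2.32% and 2.2% after. These shares describe genes that were picked by the same libraries. The wild type libraries entered the filter, the scaling and the spread of the fit, but not the contrast that picked these genes. In them the same 2740 genes held 3.22% and 3.23% of the counts at 0 h and between 6.50% and 6.73% at 24 h.

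The wild type, read from 5 other libraries, had 1747 genes (8.00%) that passed the same thresholds at 24 h against 0 h. Of the genes that rose in *lrx345*, 789 also rose in the wild type, which is 28.8% of the mutant's calls and 74.6% of the 1058 (4.85% of all genes) of the wild type. Of those that fell, 419 also fell in the wild type, 23.5% of the mutant's calls and 60.8% of the 689 (3.16%) of the wild type. Opposite calls were made for 9 genes that rose and 18 that fell in *lrx345*. A call in one genotype alone does not show a difference, so the difference of the changes was tested as an interaction in the same fit. It passed (adjusted p under 0.05 and above 1 on the log2 scale) for 1851 genes, 8.48% of those tested, with 1138 higher (5.21%) and 713 lower (3.27%) in the mutant. Without the minimum of 1 it passed for 17.8%, 9.55% higher and 8.28% lower. Among the 2740 genes that rose in *lrx345*, the rise was higher than in the wild type for 889, and among the 1785 that fell, the fall was deeper for 572. The difference passed in the other direction for 6 and 0 of these genes. They were picked by the mutant's change, which is part of the difference, so the choice itself favours this imbalance. For 1180 of the genes that rose and 872 of those that fell, the wild type had no call and the difference did not pass either.

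**Figure D1:**
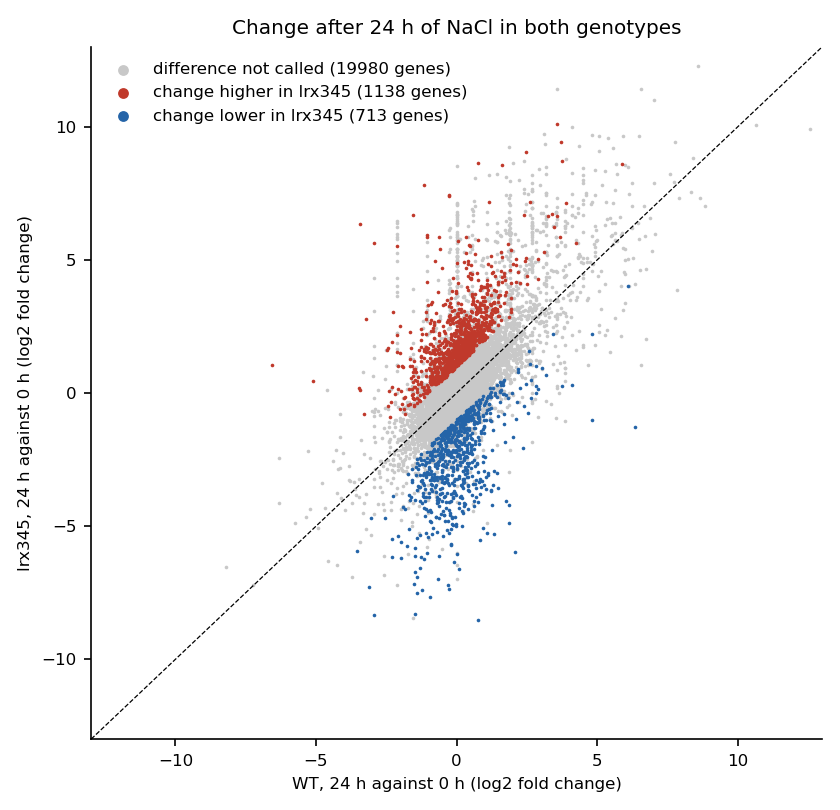
Log2 fold change at 24 h against 0 h of NaCl in the wild type (x axis) and in *lrx345* (y axis), with 1 point for each of the 21831 genes tested and the dashed line where both changes are equal. The 1138 genes in red had a higher and the 713 in blue a lower change in *lrx345* by the interaction test, and the vertical streaks are genes with few counts in the wild type.

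The genes hit in the mutant were looked at first. *LRX3* (AT4G13340) was measured at 11.2 and 9.84 FPKM at 0 h and 25.9, 27.2 and 37.2 FPKM at 24 h in *lrx345* and at 37.4 and 44.8 FPKM at 0 h and 71.6, 79.7 and 80.6 FPKM at 24 h in the wild type. Every mutant library was below every wild type library of its time point, and the gene rose in *lrx345* by 1.51 ± 0.14 on the log2 scale (adjusted p = 7.08e-09). AT4G18670, matched by both genotyping primers of 1 parental line, stood at 6.10 and 6.92 FPKM at 0 h and 12.6, 11.7 and 12 FPKM at 24 h in the mutant, all below 36.0 FPKM, the lowest value of the wild type. AT3G24480, matched by 1 primer of another parental line, stood at 59.9 and 61.0 FPKM at 0 h and 40.9, 48.4 and 51.4 FPKM at 24 h in the mutant and at 80.5 and 96.4 FPKM at 0 h and 109, 120.1 and 124 FPKM at 24 h in the wild type, so this gene was still counted at a high level. Fragments from a T-DNA allele outside the insertion are counted as well, so these levels do not measure an intact transcript. Of the 14 *LRX*, FERONIA-group and *RALF* genes listed, *LRX3* rose and 2 fell (2 rose without either 0 h library), with a median of 0.17 beside -0.01 over all genes. With 21.4% called, this list was near the 20.7% of all genes tested. *RALF1*, which encodes a peptide ligand of FERONIA, fell by 2.78 on the log2 scale, from 43.3 and 41.2 FPKM at 0 h to 5.59, 5.73 and 7.26 FPKM at 24 h. *FER* itself reached 0.67 (adjusted p = 1.0e-06), short of the fold threshold. *LRX1*, the root hair member, is described with the root hair genes below.

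The 12 genes that rose most, among genes with a mean count of at least 50, started from next to no counts. For 6 of them no fragment was counted at 0 h, so that a floor of 3 counts over both 0 h libraries was set and the fold is stated as at least that against this floor. *sks8*, which encodes a protein similar to the cell wall protein SKU5, had 0 and 0 counts at 0 h and 411, 439 and 461 at 24 h, at least 483-fold higher. *CBF2*, a DREB-type transcription factor of the cold response, had 0 and 0 counts at 0 h and 261, 283 and 179 at 24 h, at least 266-fold higher. *AGL61*, a MADS-box factor known from the central cell of the ovule, had 0 and 0 counts at 0 h and 216, 236 and 255 at 24 h, at least 260.2-fold higher. The bounds for AT4G33930 (a cupredoxin family protein), *ATHSP22.0* (a small heat shock protein) and AT2G06045 were at least 107-fold, 103-fold and 97.9-fold higher. In all 6 the 24 h libraries were far above those of 0 h, and genes with overlapping libraries had been left out of this choice.

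With 1 or 2 fragments at 0 h, a ratio can be given only with a wide counting interval. *LTP4*, a lipid transfer protein gene, had 1 and 1 counts at 0 h and 771, 733 and 495 at 24 h, a ratio of 1104 (95% exact interval 305 to 9119.9). AT4G14368, an RCC1 family gene, had 1 and 0 counts at 0 h and 788, 862 and 722 at 24 h, a ratio of 2619 (95% exact interval 469.7 to 103500.0). The ratio was 796 (95% exact interval 219.8 to 6576) for AT5G24640, of no described function, and 704 (95% exact interval 194 to 5819) for AT1G42980, a formin homology gene. These intervals cover counting error only. AT5G28520, a mannose-binding lectin gene, had 3 and 3 counts at 0 h and 1459, 1704 and 826 at 24 h, a log2 change of 9.43 ± 0.39. *CWINV5*, a cell wall invertase gene, was at 0.113 and 0.101 FPKM at 0 h and 52.8, 51.0 and 54.0 FPKM at 24 h and rose by 8.85 ± 0.28 (adjusted p = 2.25e-16), close to 8.41 in the wild type.

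The 12 genes that fell most were led by AT5G46900, a lipid transfer type protein gene of the 2S albumin superfamily, which went from 311 and 247 counts at 0 h to 1, 1 and 1 at 24 h, a ratio of 168 (95% exact interval 57.3 to 819). AT4G12520 and AT4G22666 of the same superfamily fell by 5.49 and 6.56 on the log2 scale. Tandem copies of such genes can share fragments, which were left out of the counts, so their levels are uncertain. *PCC1* went from 158 and 150 counts at 0 h to 1, 2 and 0 at 24 h and AT3G59370, a vacuolar calcium-binding protein-like gene, from 130 and 128 counts at 0 h to 1, 1 and 1 at 24 h. The jacalin-type lectin neighbours AT1G52050 and AT1G52060 fell by 6.15 and 6.12, and AT5G62330, of no described function, by 7.19. *CASP1*, which builds the membrane domain under the Casparian strip, stood at 35.9 and 31.5 FPKM at 0 h and 0.146, 0.751 and 0.492 FPKM at 24 h and fell by 6.11 (SE 0.25, adjusted p = 1.25e-14). The proline-rich extensin-like gene AT1G26240, the glyoxal oxidase-related AT1G19900 and AT3G01260 fell by 6.24, 5.75 and 5.59. The rule that named these 12 genes required the highest 24 h library to be below the lowest 0 h library, so this separation is no further result. The interaction test passed for each of these 12 genes but *PCC1* (difference -2.19, adjusted p = 0.612). The difference of AT1G26240 (-5.09, adjusted p = 0.048) no longer passed at between -5.45 and -4.57 without any 1 of wild type 0 h replicate 1, the unnumbered wild type 0 h library, wild type 24 h replicate 1, wild type 24 h replicate 2, wild type 24 h replicate 3, mutant 24 h replicate 1, mutant 24 h replicate 2 and mutant 24 h replicate 3.

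**Figure D2:**
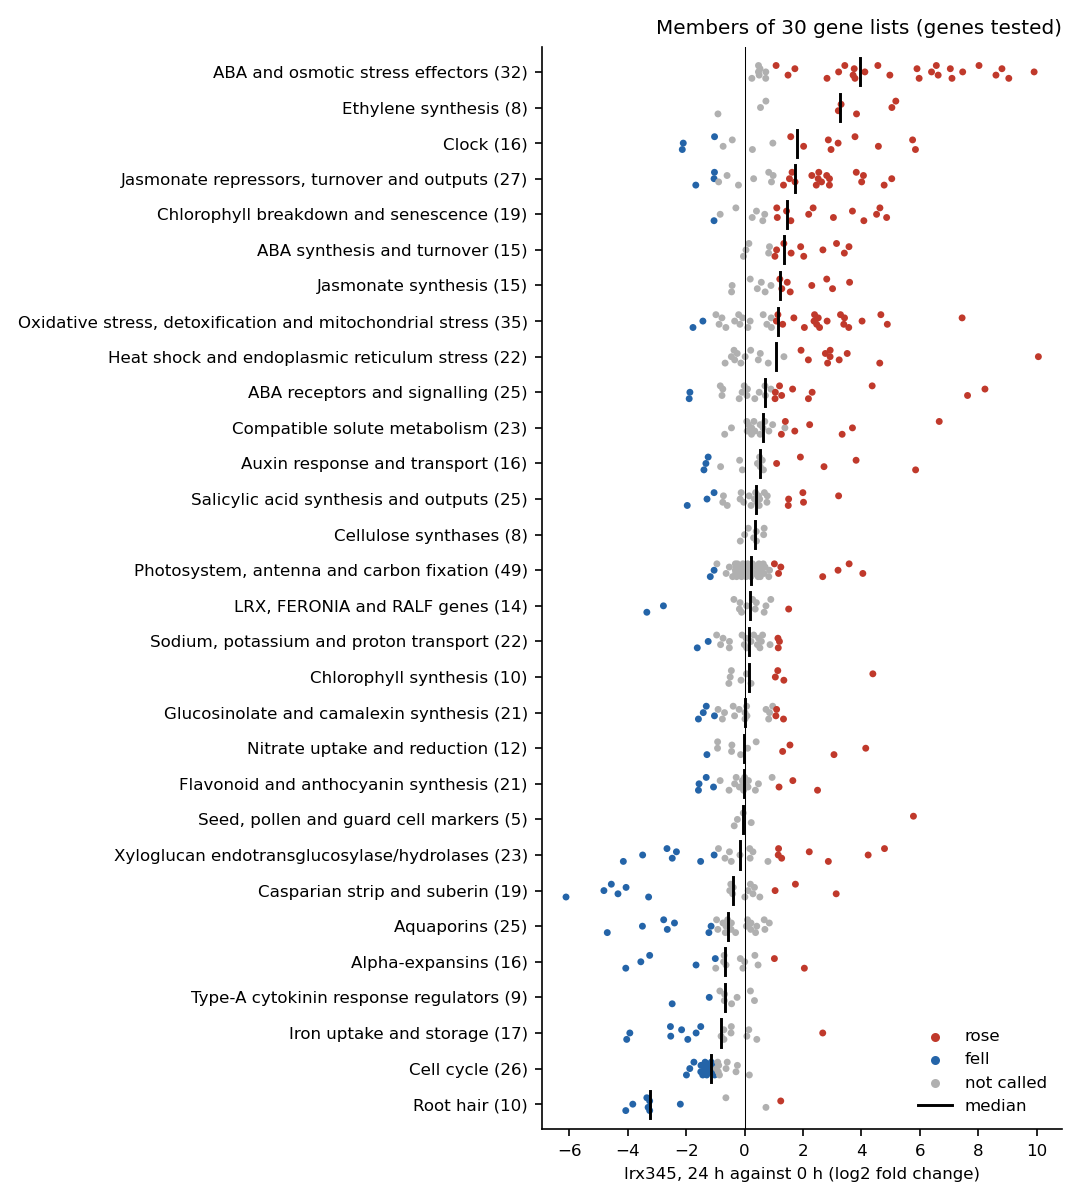
Log2 fold change in *lrx345* at 24 h against 0 h (x axis) for the tested members of 30 gene lists (y axis, number tested in parentheses, ordered by median), with 1 point for each gene, red for genes that rose, blue for genes that fell and grey for those not called, and a black bar at the median. The ABA effectors (median 3.95) stood highest and the root hair genes (median -3.25) lowest.

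Where a list had no gene called in 1 direction in *lrx345*, DESeq2 called none in that direction either, and edgeR gave between 0 and 5 of its genes at an unadjusted p under 0.05. For the difference between genotypes DESeq2 also called none in such cases. With upper-quartile scaling of the library sizes in place of TMM the median change over all genes was -0.11 in place of -0.01, and no called change of a gene named here turned its direction. Of those near the thresholds, *CHLH*, *CYP79B3* and *KCS2* lost their call with these factors, *PDF1.2c*, *PDF1.3* and *TOC1* with DESeq2, and *PDF1.2c*, *PDF1.3*, *TOC1*, *RBCS1B* and *SEN1* when a mean count of at least 20 was required. Counts of a list are read against the 12.6% of all genes tested that rose and the 8.18% that fell.

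The ABA and osmotic stress effectors were the list with the highest median. Of 32 genes, 25 rose and none fell, with a median of 3.95 (3.74 with 5 genes at their lower bound). *RAB18*, a dehydrin that protects membranes and proteins in drying cells, stood at 0.291 and 0.392 FPKM at 0 h and 35.9, 27.4 and 24.3 FPKM at 24 h. The log2 change was 6.40 ± 0.39 (adjusted p = 6.98e-12), and no 24 h library came near the 0 h level. *RD29B*, whose promoter is the standard reporter of ABA, stood at 0.060 and 0.081 FPKM at 0 h and 16.9, 12.6 and 9.66 FPKM at 24 h. *RD29A*, which answers drought and cold through DRE sites as well as ABA, stood at 9.12 and 13.8 FPKM at 0 h and 208, 127 and 134 FPKM at 24 h. Both rose, *RD29B* by 7.46 and *RD29A* by 3.78. Genes of late embryogenesis abundant (LEA) proteins rose as well, with 6.62 for *LEA4-5*, 6.56 for *EM1* and 5.97 for *LEA7*. *KIN1* reached 8.21 and 8.52 FPKM at 0 h and 568, 551 and 379.9 FPKM at 24 h and *LTP3* 1.61 and 2.16 FPKM at 0 h and 265, 248 and 223 FPKM at 24 h. In both, the libraries of 0 h and 24 h were far apart. *HVA22B*, *TSPO*, *EM6*, *XERO1* and *LEA18* had no count at 0 h, and the bounds ran from at least 2.94-fold for *LEA18* to at least 51.5-fold for *HVA22B*. *LEA18* did not pass without 0 h replicate 1.

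Of these genes 20 rose in the wild type, and the difference between genotypes passed for 5, all of them higher in *lrx345*. The count was 3 without the unnumbered wild type 0 h library and 3 without either mutant 0 h library. The 5 included *RD29A* (difference 2.02 ± 0.29) and *HIS1-3* (1.86), a linker histone of drought. For *RD29A* the wild type stood at 34.0 and 35.7 FPKM at 0 h and 95.2, 138 and 121 FPKM at 24 h. The mutant was below the wild type at 0 h, and the 24 h libraries of both overlapped. For *RAB18*, *RD29B* and *KIN1* the differences of 0.87, 1.33 and -0.80 did not pass.

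Genes that make and break down ABA rose together. Of 15 tested, 10 rose and none fell, with a median of 1.34. *NCED3*, the drought-induced enzyme at the committed step of synthesis, stood at 1.09 and 2.92 FPKM at 0 h and 16.5, 18.9 and 15.4 FPKM at 24 h and rose by 3.15 ± 0.23. The ABA 8'-hydroxylases *CYP707A3* and *CYP707A1*, which inactivate the hormone, rose by 3.57 and 2.68. *BG1*, which frees ABA from its glucose ester, rose by 2.02 from an already high 909 and 1087 FPKM at 0 h to 4934, 3526 and 3718 FPKM at 24 h. *NCED3* and *CYP707A1* rose further than in the wild type, by 1.70 and 1.36.

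In ABA signalling, 10 of 25 genes rose and 2 fell. The clade A PP2C phosphatases, which hold the pathway back, made up most of the rise. *HAI2* went from 0.071 and 0.048 FPKM at 0 h to 21.4, 19.7 and 19 FPKM at 24 h, a change of 8.23 ± 0.29. *HAI3* and *HAI1* rose by 7.63 and 4.37, *ABI2* by 2.31, *PP2CA* by 2.18 and *ABI1* by 1.64. The 2 genes that fell encode ABA receptors, *PYR1* from 67.3 and 49.3 FPKM at 0 h to 14.2, 14.9 and 19.2 FPKM at 24 h and *PYL6* from 14.1 and 12.6 FPKM at 0 h to 3.72, 3.40 and 3.66 FPKM at 24 h. These falls of 1.87 and 1.90 stood beside -1.5 and -1.52 in the wild type. *PP2CA* and *ABI1* rose further in the mutant, by 1.44 and 1.1, the latter 1.0 without mutant 0 h replicate 1.

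To look at what the promoters of these genes hold, the 250 bases before the annotated gene start were read from RefSeq's TAIR10.1 assembly and searched on both strands. Of 21711 promoters with a full window, 26.5% held the core of the ABA-responsive element, ACGTG. It was found in 36.8% of the promoters of genes that rose and in 25.3% of those of genes that fell. In the 32 ABA effectors the share was 75%. A high share was not particular to them, as it was 87.5% in the clock genes. It was 68.2% in the heat shock and endoplasmic reticulum stress genes and 66.7% in those of jasmonate synthesis. The iron genes, of which 8 fell and 1 rose, had 64.7%, and the photosystem, antenna and carbon fixation genes 51%. Lists below the share of all genes included the aquaporins (20%) and the Casparian strip and suberin genes (15.8%). The DRE core CCGAC was found in 46.9% of the effectors, 13.4% of the genes that rose, 10.6% of those that fell and 14.1% of all. The G-box CACGTG, which contains the ACGTG core on each strand, was found in 13.4% of the genes that rose, 4.54% of those that fell and 8.72% of all. Shares for the W-box TTGACC were 15.9%, 12.3% and 12.8%, and those for a heat shock element written as GAANNTTC were 12.8%, 8.18% and 9.88%. The GCC-box GCCGCC (2.46%, 1.46% and 2.33%) and the evening element AAAATATCT (2.24%, 2.18% and 2.28%) were rare. A match shows only that these letters are present.
Promoters are printed for 4 genes that rose, 1 for each of 4 motifs, because they show how matches lie before such a gene. Each is written from 5′ to 3′ on the strand of the gene and ends at the base before the gene start, with the motif on either strand in capitals.
RAB18, chr5:26519243-26519492, minus strand, ABRE core in capitals: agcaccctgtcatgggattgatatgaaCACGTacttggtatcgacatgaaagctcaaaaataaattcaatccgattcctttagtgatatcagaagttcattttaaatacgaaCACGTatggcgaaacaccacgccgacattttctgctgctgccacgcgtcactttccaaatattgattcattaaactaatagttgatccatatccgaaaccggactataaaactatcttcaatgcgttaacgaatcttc
RD29A, chr5:21240599-21240848, plus strand, DRE core in capitals: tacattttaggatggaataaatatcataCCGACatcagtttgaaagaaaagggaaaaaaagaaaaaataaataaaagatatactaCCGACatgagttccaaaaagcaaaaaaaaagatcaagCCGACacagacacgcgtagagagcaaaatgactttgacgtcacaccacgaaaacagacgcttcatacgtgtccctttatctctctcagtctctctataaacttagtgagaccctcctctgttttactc
JAZ2, chr1:28150445-28150694, minus strand, G-box in capitals: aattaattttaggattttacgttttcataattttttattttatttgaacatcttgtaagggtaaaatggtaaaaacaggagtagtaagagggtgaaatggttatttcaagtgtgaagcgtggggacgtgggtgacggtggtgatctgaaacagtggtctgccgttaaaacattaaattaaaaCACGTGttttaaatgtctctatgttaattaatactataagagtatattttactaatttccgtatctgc
HSP17.4, chr3:16984842-16985091, minus strand, heat shock element in capitals: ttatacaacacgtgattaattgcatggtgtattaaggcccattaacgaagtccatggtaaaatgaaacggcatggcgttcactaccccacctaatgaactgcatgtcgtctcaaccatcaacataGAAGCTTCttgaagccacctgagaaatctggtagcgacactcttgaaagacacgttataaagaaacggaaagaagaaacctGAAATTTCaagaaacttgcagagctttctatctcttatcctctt
*RAB18* held 2 ABRE cores, *RD29A* 3 DRE cores, *JAZ2* 1 G-box and *HSP17.4* 2 heat shock elements in this window.

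Jasmonate genes rose in *lrx345* and for the most part did not pass the thresholds in the wild type. Of 15 genes of jasmonate synthesis, 8 rose and none fell, with a median of 1.21, beside 2 in the wild type with a median of 0.32. The 13-lipoxygenase gene *LOX4*, at the first step of the pathway, stood at 15.7 and 22.2 FPKM at 0 h and 161, 147 and 148 FPKM at 24 h in the mutant. Its wild type values were 2.62 and 2.03 FPKM at 0 h and 3.76, 4.81 and 2.96 FPKM at 24 h, so that the mutant was the higher at 0 h already. The mutant rose by 3.01 ± 0.29 and the difference between the changes was 2.3 ± 0.44 (adjusted p = 7.22e-04). *LOX3* (log2 change 2.81), the CoA ligase gene *OPCL1* (2.3), *OPR3* (1.56) and *AOS* (1.46) also rose further than in the wild type. *LOX2*, by far the most abundant of them, rose by 1.21, and its difference of -0.57 did not pass the fold threshold.

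Among 27 repressors, turnover enzymes and outputs of jasmonate, 17 rose and 3 fell, with a median of 1.73. *MYC2*, the bHLH factor at the head of the response, stood at 56.0 and 55.2 FPKM at 0 h and 370.4, 340.2 and 325 FPKM at 24 h and rose by 2.63 ± 0.19 (adjusted p = 1.13e-10). In the wild type it stood at 26 and 22.7 FPKM at 0 h and 21.6, 32.7 and 28.8 FPKM at 24 h, and the difference of 2.45 ± 0.25 passed (adjusted p = 3.31e-07). Of the JAZ repressors, which are themselves targets of MYC2, *JAZ1*, *JAZ2*, *JAZ3*, *JAZ5*, *JAZ6*, *JAZ7*, *JAZ8*, *JAZ9* and *JAZ10* rose, by between 1.33 (*JAZ3*) and 4.78 (*JAZ7*), with 14.7 and 13.6 FPKM at 0 h and 111, 114 and 93.8 FPKM at 24 h for *JAZ10* and 93.5 and 116 FPKM at 0 h and 534, 501 and 514 FPKM at 24 h for *JAZ1*. The cytochrome P450 genes *CYP94B3*, *CYP94B1* and *CYP94C1*, which oxidise the active hormone, rose by 5.04, 4.01 and 2.81. *CYP94C1* stayed at 2.25 and 2.39 FPKM at 0 h and 2.12, 1.35 and 2.32 FPKM at 24 h in the wild type. *ERF1*, a factor shared by jasmonate and ethylene, rose by 4.07, and *VSP2*, a vegetative storage protein of the wound response, by 2.90 beside 3.50 in the wild type. The 3 members that fell are the defensin genes *PDF1.2b* (-1.67), *PDF1.2c* (-1.03) and *PDF1.3* (-1.04), which mark the ethylene and jasmonate branch of defence. Their sequences are close to each other and fragments that fit several copies were not counted. *PDF1.3* stood at 247 and 274 FPKM at 0 h and 195, 96.0 and 88.4 FPKM at 24 h in the mutant and at 0.725 and 1.56 FPKM at 0 h and 1.42, 0.967 and 2.2 FPKM at 24 h in the wild type. These libraries of 24 h were far apart, and the calls were lost at -0.93 without 0 h replicate 2, -0.87 without 24 h replicate 2 and -0.85 without 24 h replicate 3 for *PDF1.3* and at -0.89 without 0 h replicate 2, -0.84 without 24 h replicate 2 and -0.83 without 24 h replicate 3 for *PDF1.2c*. Of the 27 genes, the difference between genotypes passed for 14, all higher in *lrx345*.

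Ethylene synthesis showed the same direction. All 5 ACC synthase genes among the 8 tested rose, and none of the ACC oxidase genes did. *ACS2* stood at 2.01 and 1.96 FPKM at 0 h and 83.1, 65.5 and 67.6 FPKM at 24 h, and *ACS6* at 13.3 and 21.1 FPKM at 0 h and 151, 157 and 166 FPKM at 24 h. Their log2 changes were 5.18 ± 0.42 and 3.21 ± 0.29, and those of *ACS8*, *ACS11* and *ACS7* were 5.04, 3.83 and 3.30. In every one of the 5 the 24 h libraries lay above those of 0 h. The same held for 2707 of the 2740 genes that rose and for 33.2% of all genes tested. The difference from the wild type passed for *ACS6* (2.15), *ACS7* (2.38) and *ACS11* (3.86) in every fit that left out 1 library and for *ACS8* (2.94) in the full fit, but not for *ACS2* (1.96, adjusted p = 0.109), which passed with DESeq2. For *ACS8* it failed at between 2.6 and 3.21 without any 1 of wild type 0 h replicate 1, the unnumbered wild type 0 h library, wild type 24 h replicate 1, wild type 24 h replicate 3 and mutant 0 h replicate 1. The ACC oxidase genes *ACO4* and *ACO1* reached 0.73 and -0.91, within the fold threshold. With upper-quartile factors, or without mutant 24 h replicate 1, 1 gene of the list fell.

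Salicylic acid genes were mixed. Of 25 tested, 5 rose and 3 fell. *ICS1*, the isochorismate synthase of the main route, stood at 19.1 and 20.6 FPKM at 0 h and 52.7, 51.3 and 63.9 FPKM at 24 h and rose by 1.49 ± 0.11. Its regulators *SARD1* and *CBP60G* rose by 2.02 and 1.99, while the 0 h libraries of *CBP60G* stood apart at 19 and 51.4 FPKM. The marker genes of the response did not rise. *PR1* stood at 489 and 639 FPKM at 0 h and 372, 286 and 351 FPKM at 24 h (-0.75, adjusted p = 0.024), and *PR5* and *PR2* reached -0.72 and 0.34. *NIMIN2*, an inhibitor of NPR1, fell by 1.96.

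**Figure D3:**
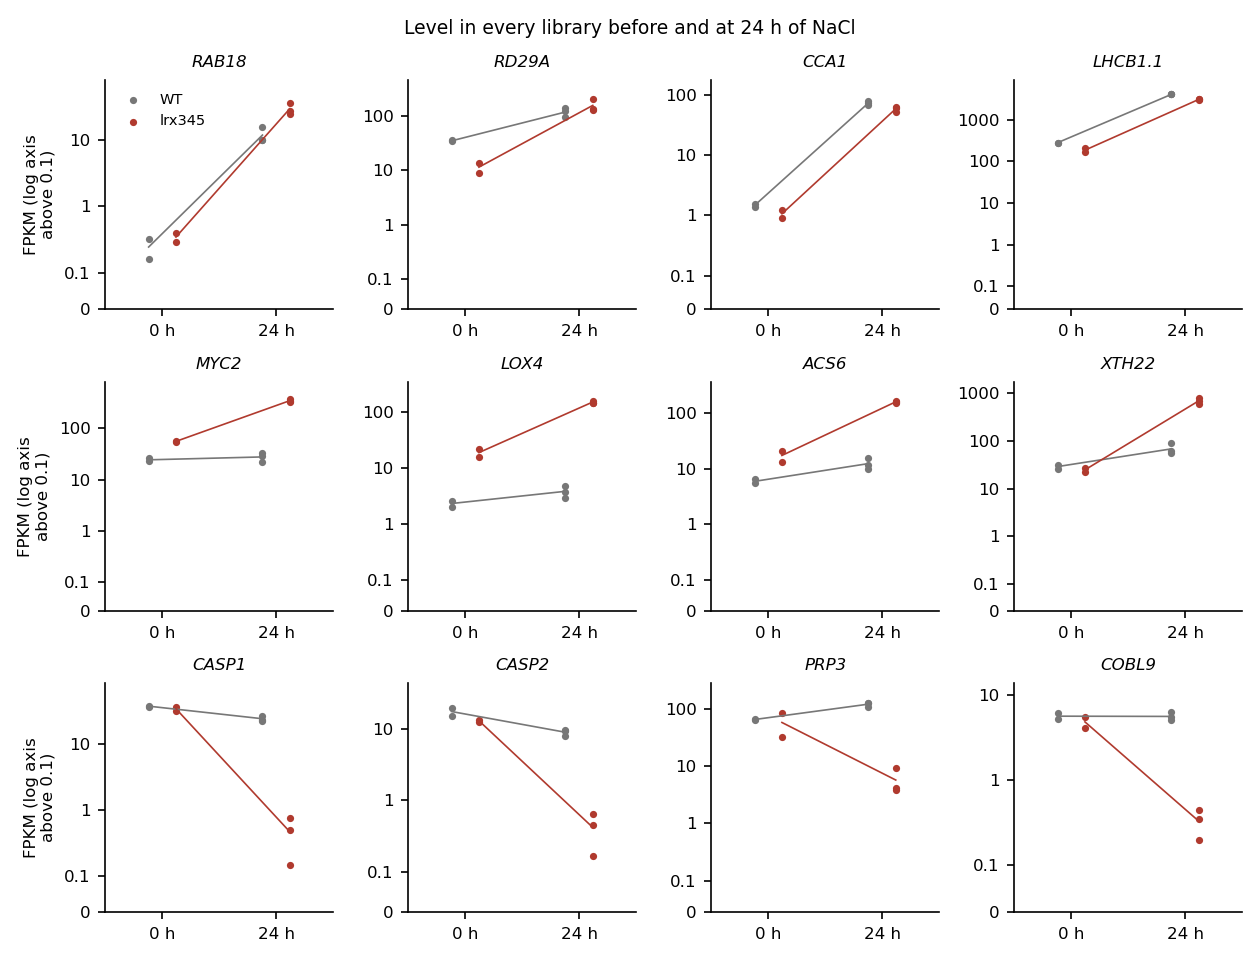
Level in FPKM (y axis, log above 0.1 and linear below) at 0 h and 24 h of NaCl (x axis) for 12 genes, with 1 point for each library of the wild type (grey) and *lrx345* (red) and lines joining the group means. *RAB18*, *CCA1* and *LHCB1.1* rose in both genotypes, *MYC2*, *LOX4*, *ACS6* and *XTH22* rose further in *lrx345*, and *CASP1*, *CASP2*, *PRP3* and *COBL9* fell in *lrx345* alone at the thresholds used.

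Genes of oxidative and mitochondrial stress rose, 19 of 35, with 2 that fell and a median of 1.14. The alternative oxidase gene *AOX1A*, which lets electrons bypass the later part of the respiratory chain, stood at 17.7 and 21.7 FPKM at 0 h and 226, 177 and 171 FPKM at 24 h and rose by 3.28 ± 0.29. *AOX1D* rose by 4.88 and the outer membrane ATPase gene *OM66*, a common marker of mitochondrial stress, from 38.5 and 45.3 FPKM at 0 h to 524, 464 and 498 FPKM at 24 h. The zinc finger genes *ZAT12* and *ZAT10*, induced by reactive oxygen in many stresses, rose by 4.66 and 3.39, and *ERF6* by 3.42. *APX2*, a cytosolic ascorbate peroxidase gene of heat and high light, had no count at 0 h and was at least 16.9-fold higher at 24 h. Those that fell were the copper and zinc superoxide dismutase genes *CSD1* (-1.43) and *CSD2* (-1.77). *CSD2* also fell in the wild type (-1.33). The difference was lower in *lrx345* for 2 genes of the list, of which 1 was left without wild type 0 h replicate 1, wild type 24 h replicate 1 or mutant 24 h replicate 2 and 0 without mutant 0 h replicate 2. It was higher for 10, among them *ZAT10* (2.57), *ERF6* (2.08), *AOX1A* (1.72) and *OM66* (1.64). Without 0 h replicate 1 the members that fell were 4.

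Of 19 genes of senescence and chlorophyll breakdown 12 rose and 1 fell, with a median of 1.44. NAC factors led the list. *ANAC055* stood at 2.78 and 5.10 FPKM at 0 h and 116, 115 and 103 FPKM at 24 h and rose by 4.86 ± 0.34, and *ANAC019*, *NAP*, *ATAF1* and *RD26* rose by 4.63, 4.08, 3.69 and 3.04. *ORE1*, a central NAC factor of leaf senescence, rose by 2.19, beside 0.50 in the wild type, and the difference of 1.69 passed. *SWEET15*, a sucrose exporter of old leaves also known as SAG29, rose by 4.52. *PAO*, which opens the chlorophyll ring, rose by 1.12. *SEN1*, a gene of dark-induced ageing, fell by 1.05, a call lost at -0.69 without 0 h replicate 2 and -0.98 without 24 h replicate 3. *PAO* was at 0.92 without 24 h replicate 1, where 2 genes of the list fell. The difference passed for 6 genes, each higher in *lrx345*.

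Heat shock and endoplasmic reticulum stress genes rose in 10 of 22 cases with none that fell. The small heat shock protein gene *HSP17.4*, whose promoter is printed above, stood at 0.712 and 1.2 FPKM at 0 h and 13.1, 9.31 and 9.68 FPKM at 24 h and rose by 3.51 ± 0.36. *HSP18.2* and *HSP17.6A* rose by 2.77 and 2.93. The factor *HSFA2*, which drives such genes, rose by 2.93 in *lrx345* beside 0.34 in the wild type, and the difference of 2.59 ± 0.40 passed. *BZIP60* and *BIP3*, of the unfolded protein response, rose by 1.93 and 2.18. Only *HSFA2* and *BZIP60* passed the interaction test among the 22.

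Clock genes changed in both genotypes. Of 16 genes 9 rose and 3 fell in *lrx345*, and 8 rose and 5 fell in the wild type. *CCA1*, a MYB-type factor with a peak at dawn, stood at 1.21 and 0.924 FPKM at 0 h and 60.6, 63.2 and 51.5 FPKM at 24 h and rose by 5.75 ± 0.16, beside 5.63 in the wild type. *LHY*, its close relative, rose by 3.78 and 4.09, *LNK2* by 4.58 and 4.80, and *RVE8* by 2.87 and 3.30. The genes that fell have their peak around dusk. *TOC1* fell by 1.03, *PRR3* by 2.13 and *ELF4* by 2.1. *TOC1* was just under the fold threshold at -0.99 without 0 h replicate 2 and -0.99 without 24 h replicate 1. The difference between genotypes passed for *PRR9* (2.16) and *BOA* (2.88) alone in this list, and that of *PRR9* failed at 1.56 without wild type 0 h replicate 1 and 1.98 without mutant 0 h replicate 2. The hour of the day at sampling is not given in the sources used here. Whether 0 h and 24 h were sampled at the same hour is thus not known. In both genotypes these libraries differ in clock gene levels as well as in salt. The part of this in the other changes was not tested.

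Of 49 genes of the photosystems, antennae and carbon fixation, 7 rose (14.3%, near the 12.6% of all genes tested), 2 fell (4.08%, beside 8.18%) and 40 did not pass, with a median of 0.21. *LHCB1.1*, an antenna protein of photosystem II, stood at 166 and 203 FPKM at 0 h and 3140.0, 3053 and 2964 FPKM at 24 h and rose by 4.05 ± 0.14 (adjusted p = 1.04e-15). *LHCB2.4*, *LHCB2.1* and *LHCB2.2* rose by 3.58, 3.20 and 2.67. The genes *RBCS1B* and *RBCS2B* of the small subunit of Rubisco fell by 1.04 and 1.17. These families hold near-identical copies, and the split of fragments among them is uncertain. *RBCS1B* was at -0.96 without 0 h replicate 2. Changes in the wild type were 3.85 for *LHCB1.1* and 3.70 for *LHCB2.1*, and no gene of the list passed the interaction test in edgeR or in DESeq2. At an unadjusted p under 0.05 in edgeR, 14 had a lower change in *lrx345* and 0 a higher one. Of 10 genes of chlorophyll synthesis, *PORA*, *CAO*, *HEMA1* and *CHLH* rose and none fell (*CHLH* 1.05, but 0.92 without 0 h replicate 1). *PORA*, the light-dependent reductase of dark-grown seedlings, rose by 4.39 from 1.04 and 1.88 FPKM at 0 h to 24.3, 34.8 and 29.9 FPKM at 24 h, and by 5.02 in the wild type.

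The root hair genes were the list with the lowest median. Of 10 genes 7 fell and 1 rose, with a median of -3.25, beside a median of 0.67 in the wild type. *PRP3*, a proline-rich protein of the root hair wall, stood at 82.7 and 31.5 FPKM at 0 h and 4.14, 9.03 and 3.82 FPKM at 24 h in *lrx345* and at 64.1 and 64.6 FPKM at 0 h and 125, 106 and 127 FPKM at 24 h in the wild type. It fell by 3.30 in the mutant, and the difference of -4.19 ± 0.45 passed (adjusted p = 5.63e-07). The 0 h libraries of the mutant were far apart, but both lay above every 24 h library. *EXPA7* and *EXPA18*, the expansins of the root hair, fell by 4.07 and 3.25. *COBL9*, needed for hair tip growth, stood at 5.57 and 4.15 FPKM at 0 h and 0.347, 0.448 and 0.196 FPKM at 24 h and fell by 3.83. *LRX1*, the extensin of the hair wall and a relative of the mutated genes, stood at 18.6 and 10.4 FPKM at 0 h and 1.53, 1.49 and 1.26 FPKM at 24 h and fell by 3.34. The factor *RSL4*, which drives hair growth, fell by 2.2, while *RHD6*, which acts before it, rose by 1.24, but by 0.93 without 0 h replicate 2. Without 0 h replicate 1, 2 genes of the list rose, and the difference was higher in the mutant for 1 in place of 0. For all 7 that fell the difference from the wild type passed, between -4.69 (*EXPA7*) and -1.96 (*RSL4*). The difference of *RSL4* failed at -1.0 without mutant 0 h replicate 1.

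The Casparian strip genes fell as well. Of 19 genes of the strip and of suberin, 6 fell and 3 rose. *CASP1* is given above. *CASP2* stood at 12.5 and 13.2 FPKM at 0 h and 0.451, 0.647 and 0.170 FPKM at 24 h and fell by 4.81, and *CASP5* and *CASP4* fell by 4.33 and 3.28. *PER64*, the peroxidase that polymerises lignin in the strip, stood at 17.3 and 15.9 FPKM at 0 h and 0.911, 1.39 and 0.570 FPKM at 24 h and fell by 4.06. In the wild type *CASP1* stood at 36.2 and 37.6 FPKM at 0 h and 26.5, 22.6 and 22.2 FPKM at 24 h. Among those for which the difference passed were *CASP1* (-5.48 ± 0.31), *CASP2* (-3.86), *PER64* (-3.54) and *CASP4* (-2.33), the last of which failed at between -2.49 and -1.67 without any 1 of wild type 0 h replicate 1, the unnumbered wild type 0 h library, wild type 24 h replicate 1, wild type 24 h replicate 3, mutant 0 h replicate 1, mutant 24 h replicate 2 and mutant 24 h replicate 3. *MYB36*, the factor that turns these genes on, stood at 5.08 and 4.86 FPKM at 0 h and 6.38, 4.82 and 5.09 FPKM at 24 h (0.12, adjusted p = 0.592). The suberin genes *FAR1* and *KCS2* rose by 1.74 and 1.04 (*KCS2* 0.85 without 0 h replicate 1 and 0.91 without 24 h replicate 2), and *MYB41*, a factor of suberin synthesis, by 3.13. *GPAT5*, *CYP86A1* and *ASFT* of the same pathway reached 0.52, 0.29 and -0.51 and did not pass. *CYP86A1* rose in the wild type by 1.45, and its difference of -1.17 passed.

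Both groups are also markers of root cell types. Over 7 endodermis markers the summed level was between 65.2 and 66.1 FPKM at 0 h and between 6.83 and 8.47 FPKM at 24 h in *lrx345*, with 5 that fell among 6 tested. Over 7 root hair markers it was between 62.9 and 137 FPKM and between 10.8 and 18.2 FPKM, with 6 that fell and 1 that rose. In the wild type the endodermis sum went from between 70.6 and 76.9 FPKM to between 41.9 and 51.1 FPKM, and the root hair sum from between 109 and 116 FPKM to between 177 and 200.5 FPKM. The shoot mesophyll markers summed to between 4826 and 5908 FPKM at 0 h and between 9345 and 9920 FPKM at 24 h in *lrx345*, with the 2 antenna genes risen and *RBCS1A*, *RCA* and *PSAD1* not called. Their sum rose in the wild type as well, from between 6538 and 6714 FPKM to between 13180 and 14159 FPKM. The 4 guard cell markers summed to between 31.8 and 35.1 FPKM at 0 h and between 34.3 and 39.4 FPKM at 24 h, and none was called. Of the seed markers, *CRA1* had 0 and 0 counts at 0 h and 0, 4 and 10 at 24 h (a call that was lost without either 0 h library or without 24 h replicate 2 or 3), and OLEO2 at most 3 in any of the 5 libraries. Of the pollen markers ANX2 was at 0 in all 5 libraries and *ANX1* did not pass. The part of a changed share of root cells in the falls of these genes was not tested.

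**Figure D4:**
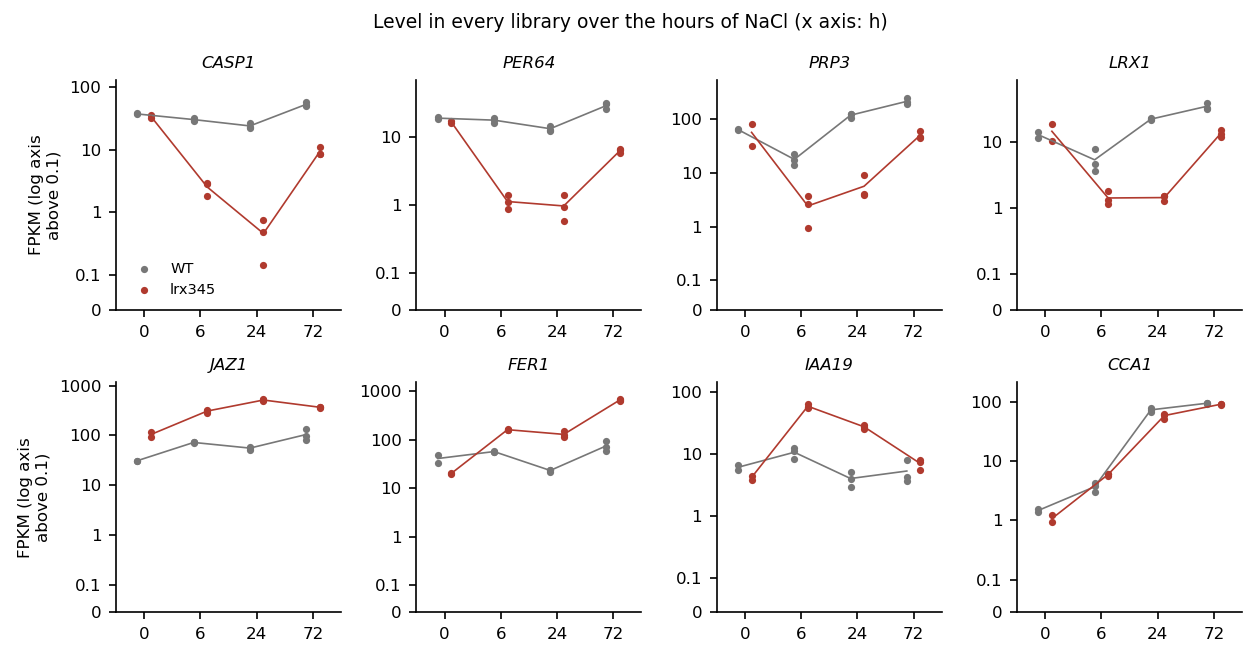
Level in FPKM (y axis, log above 0.1 and linear below) at 0, 6, 24 and 72 h of NaCl (x axis, evenly spaced) for 8 genes, with 1 point for each library of the wild type (grey) and *lrx345* (red) and lines joining the group means. *CASP1* was lowest in *lrx345* at 24 h, *LRX1* was low at 6 h and 24 h and back near its 0 h level at 72 h, and *CCA1* rose to 24 h in both genotypes.

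Changes at 6 h and 72 h were taken against the same 0 h libraries and are given side by side with those of 24 h only. For *CASP1* the log2 changes were -3.70 at 6 h, -6.11 at 24 h and -1.86 at 72 h. For *PRP3* they were -4.51, -3.30 and -0.18, and for *LRX1* -3.34, -3.34 and -0.12. Over the 10 root hair genes the median was -3.25 at 6 h and 0.26 at 72 h. *RD29B* gave 8.24, 7.46 and 9.62, and *MYC2* 2.56, 2.63 and 2.18. *JAZ6*, in contrast, gave -0.37, 1.54 and 0.10, with a rise past 2-fold at 24 h only. *CYP94C1* was also highest at 24 h, with 0.06, 2.81 and 1.15, but was still past 2-fold at 72 h. Over all 2740 genes that rose at 24 h, the median was 1.52 at 6 h and 2.3 at 72 h, and over the 1785 that fell it was -0.98 and -1.42.

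Of 25 aquaporin genes, which encode membrane channels for water and small solutes, 7 fell and none rose, with a median of -0.58. The tonoplast channel gene *TIP2;3* stood at 20.3 and 18.5 FPKM at 0 h and 0.474, 0.815 and 0.934 FPKM at 24 h and fell by 4.70, *NIP1;1* by 3.50, and the plasma membrane channel *PIP2;4* by 2.77. In the wild type 4 fell, among them *TIP2;3* by a log2 change of -3.05, and the difference passed for *TIP2;3* (-1.65), *NIP1;1* (-2.11) and *TIP4;1* (-2.19), and for 5 aquaporins without mutant 0 h replicate 2. Of 22 genes of sodium, potassium and proton transport 3 rose (13.6%) and 2 fell (9.09%), near the 12.6% and 8.18% of all genes tested. The high-affinity potassium transporter gene *HAK5* stood at 6.29 and 7.60 FPKM at 0 h and 3.70, 2.45 and 2.62 FPKM at 24 h. It fell by 1.25 in *lrx345*, while its change in the wild type was an increase of 0.98, and the difference of -2.23 ± 0.30 passed. The outward channel gene *SKOR*, which loads potassium into the xylem, fell by 1.62. *KUP11*, *NHX2* and *CAX3* rose by 1.14, 1.15 and 1.19. The sodium exporter gene *SOS1* reached 0.31 and the sodium carrier gene *HKT1* -0.96, both within the fold threshold.

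Of 17 genes of iron uptake and storage 8 fell (3 when a mean count of at least 20 was required) and 1 rose, with a median of -0.80 beside -0.82 in the wild type, where 7 fell. *IRT1*, the iron transporter of the root surface, stood at 9.39 and 2.98 FPKM at 0 h and 0.084, 0.939 and 0.095 FPKM at 24 h and fell by 3.93, beside -4.12 in the wild type. *FRU*, the bHLH factor above it also named FIT, and *BHLH39* fell by 1.66 and 2.54. *FER1*, the ferritin that stores iron in plastids, went the other way, from 20.1 and 20.4 FPKM at 0 h to 149.5, 126 and 112 FPKM at 24 h, a rise of 2.67 ± 0.18. The wild type showed no rise (-0.82), and the difference of 3.49 ± 0.23 passed (adjusted p = 2.62e-09). Of 12 nitrate genes 4 rose and 1 fell (3 with upper-quartile factors). *NRT1.8*, which takes nitrate out of the xylem, stood at 8.43 and 11.7 FPKM at 0 h and 203, 156 and 172 FPKM at 24 h and rose by 4.15, while *NRT1.5*, which loads it, fell by 1.29. *NIA1*, a nitrate reductase gene, was at -0.14 in *lrx345* and fell in the wild type (-1.84), a difference of 1.71.

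Cell wall enzymes split into a group that rose and a group that fell. Of 23 xyloglucan endotransglucosylase/hydrolase (XTH) genes, which cut and rejoin the xyloglucan between cellulose fibrils, 7 rose and 7 fell. *XTH22*, the touch-induced member, stood at 26.8 and 22.6 FPKM at 0 h and 578, 685 and 789 FPKM at 24 h and rose by 4.79 ± 0.39, with 26.2 and 31.6 FPKM at 0 h and 60.2, 88.6 and 54.7 FPKM at 24 h in the wild type. *XTH23*, *XTH25* and *XTH18* rose by 4.23, 2.87 and 2.21. *XTH13*, *XTH12*, *XTH26* and *XTH20* fell by 4.15, 3.49, 2.66 and 2.48. *XTH26* rested on 0 h replicate 1 and was at -0.96 without 0 h replicate 1. *XTH12* and *XTH13* are tandem copies with 0 h libraries far apart, 11 and 2.45 FPKM at 0 h and 0.820, 0.806 and 0.132 FPKM at 24 h for *XTH12*. The difference passed for 4 genes that were higher and 7 that were lower in the mutant, between -4.43 (*XTH13*) and 3.56 (*XTH22*). The lower ones were 4 without mutant 0 h replicate 1. Of 16 alpha-expansin genes, which loosen the wall, 2 rose and 5 fell. *EXPA10* rose by 2.05 and by 1.72 in the wild type, and *EXPA14* fell by 3.55. Those that rose were 1 without 0 h replicate 2, 24 h replicate 1 or 24 h replicate 2, and 1 with upper-quartile factors. None of the 8 cellulose synthase genes was called by edgeR or DESeq2, although 5 were higher at an unadjusted p under 0.05 in edgeR, with values between -0.15 and 0.67.

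Growth genes moved in both directions. Of 16 auxin genes 5 rose and 3 fell in *lrx345*, with a median of 0.53 beside -0.26 in the wild type. *IAA5*, an early auxin response gene, had 6 and 0 counts at 0 h and 155, 100 and 71 at 24 h and rose by 5.85 ± 0.54, *IAA29* stood at 1.3 and 0.788 FPKM at 0 h and 13, 16.1 and 16.7 FPKM at 24 h and rose by 3.82, and *IAA19* at 3.85 and 4.47 FPKM at 0 h and 29.5, 26.7 and 25.4 FPKM at 24 h and rose by 2.72. The differences of 6.48, 3.98 and 3.34 passed. *PIN2*, the auxin exporter of the root tip, and *IAA14*, a repressor of lateral root formation, fell by 1.39 and 1.32. Of 26 cell cycle genes 16 fell and none rose, with a median of -1.14 beside -0.47 in the wild type. *KNOLLE*, the syntaxin of the cell plate, stood at 40.2 and 42.8 FPKM at 0 h and 13.2, 17 and 13.7 FPKM at 24 h with a log2 change of -1.5 ± 0.13. The mitotic cyclin genes *CYCB1;3* and *CYCA1;1* fell by 1.99 and 1.73, and the mitotic kinase gene *CDKB1;2* by 1.88. The difference from the wild type passed for *CYCA1;1* (-1.01) and *PLE* (-1.04) alone among the 26, for 5 without mutant 24 h replicate 2 and for 0 when a mean count of at least 20 was required. It failed for *PLE* at -0.87 without mutant 0 h replicate 2 and -0.94 without mutant 24 h replicate 1, and for *CYCA1;1* at between -1.05 and -0.93 without any 1 of the unnumbered wild type 0 h library, wild type 24 h replicate 2, wild type 24 h replicate 3, mutant 0 h replicate 1, mutant 0 h replicate 2, mutant 24 h replicate 1 and mutant 24 h replicate 3. Of 9 type-A response regulators of cytokinin, *ARR3* and *ARR4* fell by 2.48 and 1.21 and none rose. This is 22.2% called, near the 20.7% of all genes tested. *ARR3* was not called at -1.64 without 0 h replicate 1.

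Compatible solutes hold water in stressed cells. Of 23 genes of their metabolism 7 rose and none fell. *P5CS1*, the rate-limiting enzyme of proline synthesis, stood at 10.5 and 8.81 FPKM at 0 h and 106, 98.8 and 88.5 FPKM at 24 h and rose by 3.34 ± 0.15. *GOLS2* and *GOLS1*, which start the raffinose pathway, rose by 6.66 and 3.69. *TPS8*, *TPS11* and *TPS6*, of the trehalose phosphate synthase family, rose by 1.72, 1.39 and 1.26, and the differences of 1.43 and 1.41 for *TPS8* and *TPS11* passed. *GOLS4* rose less than in the wild type, with 2.23 beside 3.45 and a difference of -1.22, which failed at -0.70 without wild type 0 h replicate 1 and -0.83 without mutant 0 h replicate 2. *ERD5*, the proline dehydrogenase that breaks proline down, stood at 59.4 and 59.2 FPKM at 0 h and 60.0, 73.3 and 61.1 FPKM at 24 h in *lrx345* and fell in the wild type (-1.16), a difference of 1.29.

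Genes of secondary metabolism changed in both directions. Of 21 flavonoid genes 3 rose and 4 fell (33.3% called, beside 20.7% of all genes tested), with a median of -0.03. The regulators *MYBL2* and *PAP1* rose by 1.65 and 1.18 (*PAP1* 0.95 without 24 h replicate 1), while *FLS1*, flavonol synthase, and *MYB111*, its regulator, fell by 1.56 and 1.58. *TT7*, the flavonoid 3'-hydroxylase, fell by 1.31 and differed from the wild type by -1.97. Of 21 glucosinolate and camalexin genes 3 rose (1 with upper-quartile factors) and 4 fell, likewise 33.3%. *MAM3* and *CYP79F2*, of the aliphatic branch, fell by 1.58 and 1.41, and *CYP79B3*, of the indole branch, rose by 1.1, but by 0.97 without 0 h replicate 1 and 0.95 without 24 h replicate 1. Without 0 h replicate 2, 6 genes of this list rose.

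Across all genes, the largest differences between genotypes were read from genes with a mean count of at least 50 over the 10 libraries of 0 h and 24 h. *ORA47*, an ERF-type factor of the jasmonate response, had 6 and 8 counts at 0 h and 601, 792 and 488 at 24 h and rose by 7.17 ± 0.58 in *lrx345*, beside 1.16 in the wild type, a difference of 6.01 ± 1.56 (adjusted p = 0.0090), which failed at 5.50 without wild type 0 h replicate 1. *SVL3*, of the SHV3-like wall protein family, had 4 and 3 counts at 0 h and 80, 82 and 112 at 24 h and differed by 6.00 ± 0.60. AT5G24640, named above, differed by 5.74, the LEA family gene AT3G15670 by 4.95, the F-box gene AT5G55150 by 4.56 and the LysM kinase gene *LYK2* by 4.39. These differences rested on few counts, and 3 of them failed when libraries were left out. That of AT5G24640 was then between 5.50 and 5.96 without any 1 of wild type 0 h replicate 1, the unnumbered wild type 0 h library, wild type 24 h replicate 1, wild type 24 h replicate 3, mutant 0 h replicate 1, mutant 0 h replicate 2, mutant 24 h replicate 1, mutant 24 h replicate 2 and mutant 24 h replicate 3. That of AT3G15670 was 4.56 without the unnumbered wild type 0 h library, and that of AT5G55150 3.96 without wild type 0 h replicate 1, 5.45 without mutant 0 h replicate 1 and 4.17 without mutant 0 h replicate 2. In the other direction, AT1G05660, a pectin lyase-like gene, went from 130 and 114 counts at 0 h to 1, 1 and 0 at 24 h in *lrx345* and had 71 and 63 counts at 0 h and 63, 44 and 71 at 24 h in the wild type, a difference of -6.73 ± 0.55. *BCAT7*, a branched-chain aminotransferase gene, had 292 and 344 counts at 0 h and 6, 5 and 4 at 24 h and differed by -6.63 ± 0.54. AT5G60520 differed by -6.02, AT5G62330 by -5.66 and *CASP1* by -5.48. *DIR5*, a dirigent protein gene, had 134 and 276 counts at 0 h and 85, 72 and 38 at 24 h in the mutant (-1.01, adjusted p = 0.051) and rose in the wild type (4.81), a difference of -5.83 ± 1.16.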

How the data were processed

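Transcripts of whole 10-day-old seedlings were measured by RNA-seq in 22 libraries of 8 groups of genotype and time. The values are raw fragment counts per gene, which the authors deposited as 1 table. Read pairs had been mapped to TAIR10 with TopHat2 per the labels and counted over exons with featureCounts 1.4.6 per the file header, without strand and without fragments that fit several places or genes. Exon lengths came from the same table. Of 33602 identifiers, 32835 were matched to symbols in RefSeq's gene table.

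From the counts, edgeR 4.0.16 in R 4.3.3 was run on all 22 libraries with 8 group means, TMM factors, filterByExpr by group and the quasi-likelihood test. P-values were adjusted by Benjamini and Hochberg over 21831 genes. One spread per gene was shared by the 8 groups, because *lrx345* at 0 h has 2 libraries. The study's methods name cuffdiff, which needs reads. Those methods, written for seedlings before and 6 h after NaCl, state 3 biological replicates for each sample. This covers the 0 h libraries, although each genotype has only 2 of them here. The labels add no origin for those of 24 h, so p-values measure the spread between these libraries. For a single value, 2 against 3 libraries cannot go below an exact p of 0.1. Replicates differed beyond counting noise (chi-square per degree of freedom between 3.13 and 7.81 in the mutant groups), so none was taken for a copy. Library totals ran from 7413461 to 15047080 fragments. 1 wild type 0 h column carries a number that no label has and was used without one.

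The members and the 30 gene lists (597 genes) were chosen with earlier results of these data known, so lists are described by counts and medians with no test. Genes were named as the 12 that rose and the 12 that fell most (mean count of at least 50, libraries not overlapping), the 6 largest differences in each direction, the mutated genes, and from each list the called members with the largest changes (up to 5) or with the opposite direction. List members beyond these, named to describe a list, were chosen after their values were seen. Some genes that this rule names are not reported here. Standard errors are the log2 change divided by the square root of F. Promoters were the 250 bases before the gene start in RefSeq's TAIR10.1 assembly, whose exon intervals were identical for 80.76% of those in the table. The calculations were tested on simulated data. Alternatives were DESeq2 1.42.0, upper-quartile factors, other filters and thresholds, fewer libraries, a replicate block and leaving out each library in turn.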

Additional observations from a re-analysis of the deposited data

Results flagged for a closer look

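The change from 0 h to 24 h of NaCl differed between *lrx345* and the wild type for 1138 genes with a higher and 713 genes with a lower change in the mutant, by an interaction term in edgeR's fit. Among the genes whose difference is printed in the text, the difference of the log2 changes (mutant minus wild type) was higher for *IAA5* 6.48, *ORA47* 6.01, *SVL3* 6.00, AT5G24640 5.74, AT3G15670 4.95, AT5G55150 4.56, *LYK2* 4.39, *IAA29* 3.98, *ACS11* 3.86, *XTH22* 3.56, *FER1* 3.49, *IAA19* 3.34, *ACS8* 2.94, *BOA* 2.88, *HSFA2* 2.59, *ZAT10* 2.57, *MYC2* 2.45, *ACS7* 2.38, *LOX4* 2.3, *PRR9* 2.16, *ACS6* 2.15, *ERF6* 2.08, *RD29A* 2.02, *HIS1-3* 1.86, *AOX1A* 1.72, *NIA1* 1.71, *NCED3* 1.70, *ORE1* 1.69, *OM66* 1.64, *PP2CA* 1.44, *TPS8* 1.43, *TPS11* 1.41, *CYP707A1* 1.36, *ERD5* 1.29 and *ABI1* 1.1. It was lower for AT1G05660 -6.73, *BCAT7* -6.63, AT5G60520 -6.02, *DIR5* -5.83, AT5G62330 -5.66, *CASP1* -5.48, AT1G26240 -5.09, *EXPA7* -4.69, *XTH13* -4.43, *PRP3* -4.19, *CASP2* -3.86, *PER64* -3.54, *CASP4* -2.33, *HAK5* -2.23, *TIP4;1* -2.19, *NIP1;1* -2.11, *TT7* -1.97, *RSL4* -1.96, *TIP2;3* -1.65, *GOLS4* -1.22, *CYP86A1* -1.17, *PLE* -1.04 and *CYCA1;1* -1.01. Other genes named in the text also passed, without a printed difference. No group had the 4 or more libraries that a search for single outlying libraries needs.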

How the results depend on the processing

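The count of 4525 genes stayed within 1.5 times its value under each alternative but 1. It was 4435 with DESeq2, 4606 with upper-quartile factors, 4800 without a filter on low counts, 3411 with a mean count of at least 20, 4441 with the *lrx345* libraries alone and 3996 with the 5 libraries alone. Without a fold minimum it was 11772 (6002 rose and 5770 fell), the difference passed for 3891 genes (2084 higher and 1807 lower), and 455 list genes were called in place of 269. When each library was left out in turn, the count lay between 4088 and 4611, that of genes that rose between 2475 and 2925, that of genes that fell between 1613 and 1836, and that of differences between 1514 and 1898. Leaving an arm with 1 library assumes that it varies like the other groups. Of the 4525 genes, 3255 (71.9%) kept their call without each library in turn, as did 1073 of the 1851 differences. The replicate numbers were not taken as pairs, because the deviations of libraries with the same number had correlations of -0.0109 and -0.0536. With the replicate block, 4596 genes passed (2822 rose and 1774 fell), 4372 of them shared with the fit without it, and the difference passed for 1462. The block fit left out the unnumbered wild type 0 h library. In it the differences of AT1G26240, AT3G15670, AT5G24640, *CASP4*, *CYCA1;1* and *PLE* did not pass. That of *CYCA1;1* failed with DESeq2 as well. Counts at 0 h limit the folds of genes that were near 0 before the treatment.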
